A study of Mus musculus and blank sample with 91 samples.

Results

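Mice that had received Complete Freund's Adjuvant (CFA) alone were compared with untreated naïve mice at 29 days post-immunization (dpi), when neither group showed paralysis. The labels give 6 CFA samples at 29 dpi. The sample of mouse 548 has a total count of 0 and was left out, so 5 CFA mice (543 to 547) and 6 naïve mice (558 to 563) were compared, which is 11 of the 88 samples with counts. All mice were female C57BL/6 (C57BL/6J in the study's methods), 8 weeks old at purchase. Per the labels, CFA mice received only the adjuvant, and naïve mice were not immunized. The label of the CFA mice is taken here to mean no pertussis toxin, which the study's methods do not state for them. On that reading, EAE and CFA mice differ in both the peptide and the toxin named below. The mice of the disease group, in which experimental autoimmune encephalomyelitis (EAE) was induced with a myelin peptide in CFA and pertussis toxin, were compared with the CFA mice at 29 dpi and are shown at the other days for orientation. The clinical score was 0 in all 11 mice. Body weight was 19.2 ± 1.32 g (SD, n = 5) in CFA mice and 19.6 ± 0.734 g (SD, n = 6) in naïve mice, a difference of -0.453 g that lay within the spread between mice (two-sided exact permutation test, p = 0.487).

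CFA is mineral oil with killed mycobacteria. It starts a strong inflammatory response at the injection site and is the carrier in which EAE antigens are given, so mice that receive it alone serve as its control. Feces of laboratory mice hold mainly Firmicutes and Bacteroidetes. Among the Firmicutes, lactobacilli ferment sugars to lactic acid, Lachnospiraceae and Ruminococcaceae are anaerobes that ferment plant fibre and in part form butyrate, and Turicibacter (family Erysipelotrichaceae here) and Clostridium_sensu_stricto_1 live mainly in the small intestine. Akkermansia (phylum Verrucomicrobia) degrades the mucin of the gut lining.

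Fecal DNA was amplified with primers for the bacterial 16S rRNA gene, and reads were counted per amplicon sequence variant (ASV). Each of the 11 samples held 55597 to 102437 counts, and the median was 84685. A floor of 3 counts per sample was used for taxa at 0, which is 0.00293% to 0.00540% of a sample's counts. Floors and counting errors cover the sampling of reads only. Percents are shares of a sample's counts and not amounts of bacteria, so a higher share of 1 taxon lowers the others. ASVs that differed only in the primer variant were summed to 16S sequences. The 11 samples held 636 ASVs, 197 sequences, 60 of the 73 named genera and 19 of the 26 families. Some sequences carry several genus names among their primer variants, and these sequences held 10.7% to 34.5% of a mouse's counts. Treatment was assigned by cage, with 2 to 3 mice per cage, and the cage of each mouse is not given in the sources used here, so cage and treatment cannot be told apart and mice of a cage are not independent. P-values therefore measure the spread between mice only.

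Turicibacter was the most abundant 16S sequence in 4 of 5 CFA mice at 29 dpi. Every CFA mouse held less Lactobacillus than 5 of the 6 naïve mice did, and none held counts of Akkermansia. In naïve mice the most abundant sequence was Lactobacillus in mice 558, 559 and 560, Akkermansia in 561, Roseburia in 562 and Turicibacter in 563. Turicibacter made up 33.6% ± 11.9 (SD, n = 5) of the counts of CFA mice and 7.58% ± 13.8 (SD, n = 6) of those of naïve mice. Lactobacillus made up 9.97% ± 2.27 and 31.8% ± 18.5. Akkermansia had 0 counts in every CFA mouse and 16.9% ± 11.7 in naïve mice. Exact permutation tests of the percents passed 0.05 before adjustment for 3 of 26 families (11.5%) and 10 of 73 genera (13.7%), and none of them passed after Benjamini-Hochberg adjustment. That adjustment ran over all 26 families and 73 genera, of which only 19 and 60 had counts in the 11 mice. Taxa without counts could not pass but raised the adjusted p of the others. An adjustment over the taxa with counts alone was not run. The quasi-likelihood test of edgeR on the counts called 2 of 23 families (8.70%), 5 of 65 genera (7.69%) and 5 of 203 sequences (2.46%) at an adjusted p under 0.05. Before adjustment, that test had 8 families (34.8%), 21 genera (32.3%) and 97 sequences (47.8%) under 0.05. These shares include taxa seen in a single mouse of the 11. Among the families, Mycoplasmataceae, Dehalobacteriaceae-Peptococcaceae and the one named Eukaryota had counts in 1 naïve mouse each, at 0.128%, 0.141% and 0.0348%. The exact permutation test passed for none of these 3. Of the sequences called, 4 were higher (1.97%) and 1 lower (0.493%) in CFA mice, a balance that turned to 24 higher and 57 lower with DESeq2 and to 7 higher and 11 lower with the filter set over the 11 samples.

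**Figure D1:**
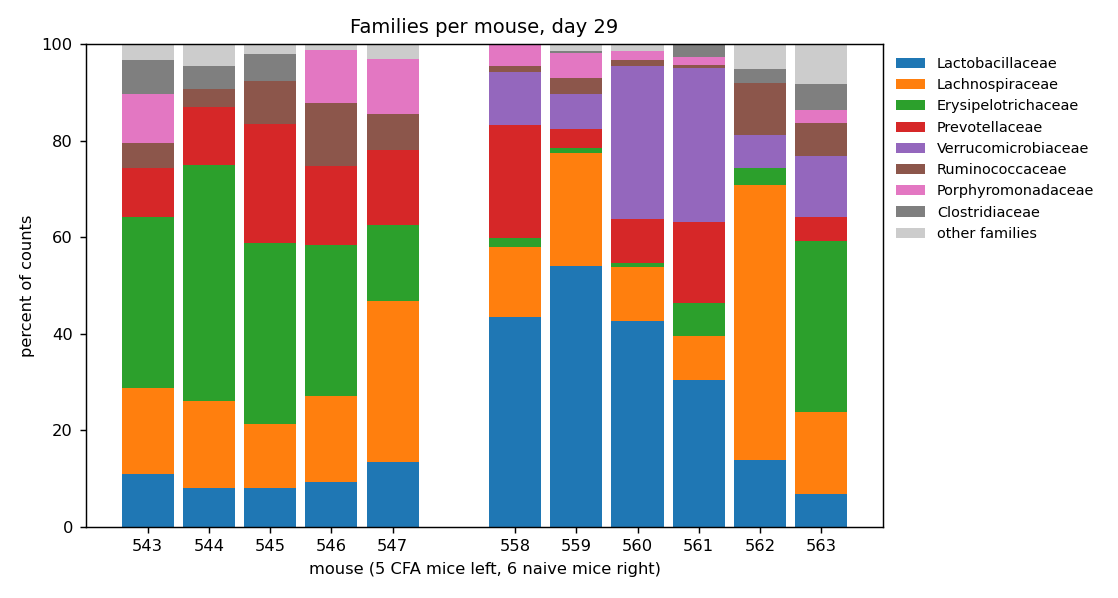
Percent of counts per family (y axis) in each of the 5 CFA and 6 naïve mice at 29 dpi (x axis, mouse numbers), with 1 stacked bar per mouse. Erysipelotrichaceae held 15.8% to 49.0% in CFA mice and under 7% in 5 of the 6 naïve mice, and Verrucomicrobiaceae was seen in naïve mice alone.

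Turicibacter was at 35.4%, 48.6%, 37.4%, 31.0% and 15.8% in CFA mice 543 to 547. In naïve mice 558 to 563 it was at 0%, 0%, 0%, 6.91%, 3.36% and 35.2%. The groups overlapped through naïve mouse 563 alone, which lay above CFA mice 546 and 547 and close to mouse 543. The mean was higher by 26.1 percentage points, or 4.44-fold, in CFA mice (exact permutation test, p = 0.0130, adjusted p = 0.158). On counts, the log2 fold change was 2.24 with a standard error of 1.56 and did not pass (edgeR, adjusted p = 0.404). A single sequence, with the species name Turicibacter sanguinis, held 97.8% of the counts of the family Erysipelotrichaceae in these mice. The family itself was at 33.8% ± 12.0 (SD, n = 5) in CFA and 8.23% ± 13.5 (SD, n = 6) in naïve mice (two-sided exact test, p = 0.0195, adjusted p = 0.253).

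The level of Turicibacter in CFA mice at 29 dpi followed a low at 8 dpi. Turicibacter was at 11.4% ± 5.57 (SD, n = 6) at -2 dpi, before immunization, and had 0 counts in all 6 CFA mice at 8 dpi. It was at 0.845% ± 1.34 with counts in 3 of 6 mice at 14 dpi, and at 12.7% ± 10.1 with counts in 5 of 6 mice at 19 dpi. The level at -2 dpi was at least 2210-fold that at 8 dpi, where each sample was set to its floor. Naïve mice were at 16.5% ± 8.00, 17.5% ± 15.3, 15.4% ± 13.7 and 7.97% ± 6.20 (SD, n = 6) at the same days. On counts, Turicibacter was lower in CFA than in naïve mice at 8 dpi (edgeR, adjusted p = 2.06e-07, where 21.5% of genera were called) and passed at no other day, with an adjusted p of 0.0796 at 14 dpi and 1.00 at -2 and 19 dpi.

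Each of the 5 CFA mice had more Turicibacter at 29 dpi than at -2 dpi, by 22.3, 31.4, 20.5, 26.4 and 3.99 percentage points in mice 543 to 547. The mean change was 20.9 ± 10.3 (SD, n = 5), with a p of 0.0625 in an exact sign-flip test, the smallest that 5 mice allow. In naïve mice 558 to 562 the change was -28.8, -14.8, -6.24, -15.9 and -9.62 percentage points, and in mouse 563 it was 21.7. The change was larger in CFA mice by 29.9 percentage points (exact permutation test, p = 0.0130, adjusted p = 0.351). Such changes passed 0.05 before adjustment for 7 of 63 genera (11.1%) and after it for none. Relative to -2 dpi, the difference at 29 dpi held both higher values in 5 CFA mice and lower values in 5 naïve mice.

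**Figure D2:**
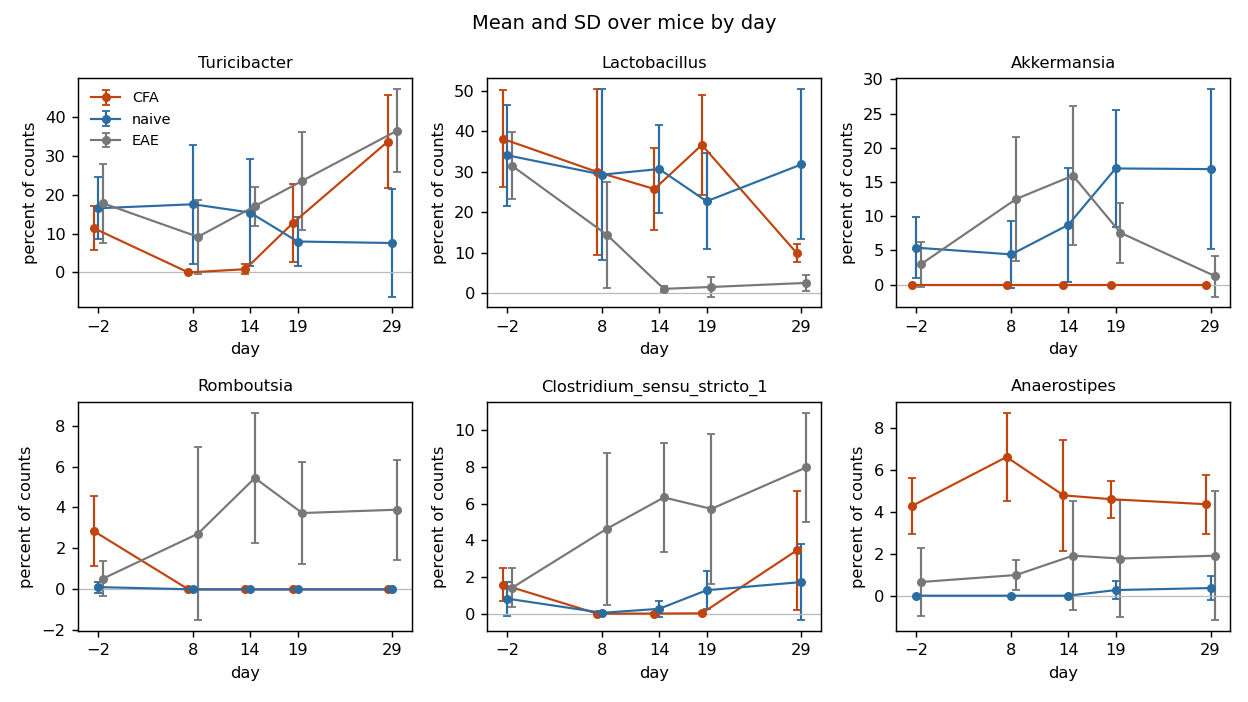
Percent of counts of 6 genera (y axes) by sampling day from -2 to 29 dpi (x axis) in CFA (orange), naïve (blue) and EAE (grey) mice. Points are group means, joined by lines, and bars are the SD over mice, which reach below 0 where mice differ widely. The labels number EAE mice at -2 and 8 dpi differently from those at 14 to 29 dpi, so the grey lines do not follow known animals. Turicibacter in CFA mice went from 0 at 8 dpi to a mean of 33.6% at 29 dpi, and Akkermansia had no counts in CFA mice at any day.

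Lactobacillus was in the narrow range of 7.99% to 13.4% in CFA mice, at 11%, 8.08%, 7.99%, 9.37% and 13.4% in mice 543 to 547. Naïve mice spread far more widely, with 43.4%, 54.1%, 42.7%, 30.3%, 13.8% and 6.70% in mice 558 to 563. Naïve mouse 562 was just above and mouse 563 was below every CFA mouse. A single sequence with the species name Lactobacillus johnsonii made up 99.9% of the counts of the family. On counts, the log2 fold change of the genus was -2.25 with a standard error of 1.02 (edgeR, adjusted p = 0.113). The exact test of the percents gave p = 0.0368 and an adjusted p of 0.319 for the family. On a centred log ratio, which sets a taxon against the mean of all taxa in its sample, the difference was -0.82 (log2) with p = 0.420 in the exact permutation test.

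Lactobacillus had been at 38.1% in CFA and 34.1% in naïve mice at -2 dpi, and at 36.6% and 22.7% at 19 dpi. All 5 CFA mice had less at 29 dpi than at -2 dpi, by -18.5, -21.2, -20.2, -49.3 and -30.6 percentage points (exact sign-flip test, p = 0.0625, the smallest possible). Naïve mice went both ways, from -29.4 to 35.4 percentage points. The change differed by -25.7 percentage points between the groups, which did not pass (exact permutation test, p = 0.0736). Of the 65 genera tested, 0 were called for a change in the CFA to naïve difference from 19 to 29 dpi (edgeR). Before adjustment, 11 (16.9%) were under 0.05 in that edgeR test. For Lactobacillus the log2 fold change of that difference was -2.97 with a standard error of 1.35. The lack of a call therefore does not show that the difference stayed the same.

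**Figure D3:**
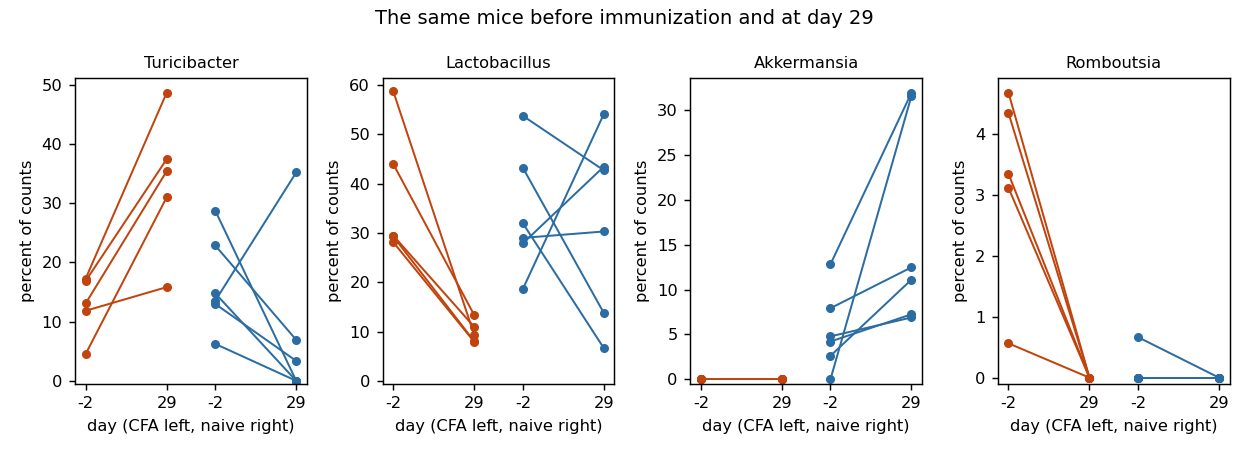
Percent of counts (y axis) of 4 genera at -2 and 29 dpi in the same 5 CFA and 6 naïve mice, with 1 line per mouse (CFA orange, naïve blue). All 5 CFA lines go up for Turicibacter and down for Lactobacillus, Romboutsia goes to 0 in every CFA mouse, and all 6 naïve lines go up for Akkermansia.

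Akkermansia had the lowest adjusted p of the genera on counts. Naïve mice 558 to 563 held 11.1%, 7.25%, 31.6%, 31.9%, 6.90% and 12.5%, and the 5 CFA mice held 0 counts, so that the naïve mean was at least 4144-fold higher than the floor in CFA mice. The family Verrucomicrobiaceae, which holds only this genus here, passed on counts (edgeR, adjusted p = 0.000696), as did the genus (edgeR, adjusted p = 0.000456). The percents of the family passed over mice before adjustment but not after it (exact permutation test, p = 0.00649, adjusted p = 0.169). The same genus was already absent from the counts of all 6 CFA mice at -2 dpi and had no counts in that group at any of the 5 days. At -2 dpi it was in 5 of 6 naïve mice at 5.39% ± 4.48 (SD, n = 6) and passed as lower in the mice later given CFA (edgeR, adjusted p = 0.000456). It was higher at 29 than at -2 dpi in 6 of 6 naïve mice, by 11.5 ± 11.7 percentage points (SD, n = 6, exact sign-flip test, p = 0.0313, the smallest that 6 mice allow). On counts, naïve mice at 29 and -2 dpi did not pass against each other (edgeR, adjusted p = 0.869). Akkermansia was thus without counts in CFA mice before immunization as after it.

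The other 4 genera called at 29 dpi were each at 0 in every mouse of 1 group and in some mice of the other. Stomatobaculum (Lachnospiraceae) was at 0%, 0%, 1.16%, 1.52% and 2.88% in CFA mice 543 to 547 and at 0 in naïve mice, at least 310-fold higher (edgeR, adjusted p = 0.00972). Neglecta (Ruminococcaceae) was at 0%, 0%, 0.525%, 0.158% and 2.01% in CFA mice and at 0 in naïve mice, at least 150-fold higher (edgeR, adjusted p = 0.0440). All these mice had 0 counts of Neglecta at -2 dpi, and its change since then did not pass over mice (exact permutation test, p = 0.0606). Lachnoclostridium (Lachnospiraceae) was at 0 in CFA mice and at 0.145%, 1.34%, 0%, 1.34%, 1.73% and 0.363% in naïve mice, which was at least 201-fold higher in naïve mice (edgeR, adjusted p = 0.0440). Peptococcus-rc4-4, the called genus of the family Peptococcaceae, was at 1.50% and 2.05% in naïve mice 562 and 563 alone (edgeR, adjusted p = 0.0282 for the genus and 0.0160 for the family). The test over mice did not pass for the percents of that family (exact permutation test, p = 0.455, adjusted p = 0.985). Of the 65 genera tested, 2 were called higher (3.08%) and 3 lower (4.62%) in CFA mice.

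Leaving out any 1 of the 11 mice kept Akkermansia and Stomatobaculum under 0.05, with adjusted p-values of at most 0.00318 and 0.0294. Neglecta was lost without any mouse other than CFA mouse 546 (edgeR, adjusted p up to 0.0997), Lachnoclostridium without any mouse other than naïve mouse 560 (up to 0.106), and Peptococcus-rc4-4 without CFA mouse 543, 544, 545 or 547 (up to 0.0765). Without both naïve mice that held it, Peptococcus-rc4-4 had no counts to compare. Stomatobaculum shares its 16S sequence with another name, Lachnospiraceae_NK4A136-Clostridium XlVa. That sequence was at 0%, 0%, 2.45%, 3.38% and 2.88% in CFA mice and at 0 in naïve mice, at least 486-fold higher (edgeR, adjusted p = 0.0409). Its adjusted p lay above 0.05 without CFA mouse 547 (0.0510) and without any 1 naïve mouse (up to 0.0852).

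The groups already differed before immunization. At -2 dpi, with 6 mice in each group, edgeR also called 5 of 65 genera (7.69%), and Akkermansia, Stomatobaculum and Peptococcus-rc4-4 were called in the same direction at both days. Stomatobaculum had counts in CFA mice and none in naïve mice at each of the 5 days, and Peptococcus-rc4-4 had none in CFA mice at any day. Neglecta differed from these, with no counts in 6 CFA mice at -2 dpi and counts in 3 of 5 at 29 dpi. On counts, CFA mice at 29 dpi did not pass against CFA mice at -2 dpi for Neglecta (edgeR, adjusted p = 0.119) or Lachnoclostridium (0.130). The change since -2 dpi differed between CFA and naïve mice for 1 of 65 genera (1.54%), Ruminococcus-DTU089 (edgeR, adjusted p = 0.0492), which had counts in CFA mouse 545 alone among the 11 mice at 29 dpi, at 0.307%. A fit of only the 11 mice at both days had 53 genera with enough counts, without Ruminococcus-DTU089. There, 0 genera passed with the mouse number as a block and 1, a different genus, without it.

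Several less abundant genera separated the groups without overlap. In 6 of 73 genera (8.22%), no CFA mouse lay within the range of the naïve mice. Anaerostipes, a butyrate producer of the Lachnospiraceae, was at 4.12%, 5.39%, 4.10%, 5.91% and 2.30% in CFA mice 543 to 547. In naïve mice it was at 1.13% and 1.06% in mice 558 and 559 and at 0 in the others. The CFA mean of 4.36% ± 1.40 (SD, n = 5) was 12.0-fold that of naïve mice, at 0.364% ± 0.565 (SD, n = 6, exact permutation test, p = 0.00216, adjusted p = 0.0527). Lachnospira, which ferments pectin, was at 1.15% ± 0.314 in CFA and 0.185% ± 0.209 in naïve mice (6.21-fold). Ruminococcaceae_UCG-013 was at 0.608% ± 0.268 and 0.0566% ± 0.0888 (10.7-fold). Both had the same exact p of 0.00216, the smallest that 5 against 6 mice allow, with an adjusted p of 0.0527. These adjusted values ran over all 73 genera, of which 60 had counts in the 11 mice. Over those 60 alone they would be lower, which was not run, so the narrow miss of 0.05 depends on counting genera without counts. On counts these 3 genera did not pass (edgeR, adjusted p = 0.423, 0.652 and 0.497). At -2 dpi Ruminococcaceae_UCG-013 was already at 0.552%, 0.632%, 0.246%, 0% and 1.07% in CFA mice 543 to 547. Among naïve mice only 561 held it then, at 0.707%. The changes of these 3 genera since -2 dpi did not pass between the groups (exact permutation tests, p = 0.229, 0.154 and 0.483).

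Dorea and Acutalibacter ran the other way. Dorea (Lachnospiraceae) was at 0%, 0.108%, 0.200%, 0.944% and 0.406% in CFA mice and at 1.52%, 1.98%, 1.53%, 1.09%, 5.16% and 2.76% in naïve mice. The naïve mean was 7.04-fold as high (exact permutation test, p = 0.00433, adjusted p = 0.0790), and the log2 fold change on counts was -3.31 with a standard error of 2.08 (edgeR, adjusted p = 0.313). At -2 dpi Dorea was at 0.341%, 0%, 0.231%, 0% and 0% in these CFA mice. Naïve mice then held 0.531%, 5.15%, 1.18%, 0%, 0% and 2.68%. The change of Dorea since -2 dpi did not pass between the groups (exact permutation test, p = 0.610). Acutalibacter (Ruminococcaceae) reached at most 0.332% in CFA mice and held 0.340% to 2.01% in naïve mice (two-sided exact test, p = 0.0152, adjusted p = 0.158). The gap between CFA mouse 546 and naïve mouse 558 was therefore small for Acutalibacter. Ruminococcus, which holds fibre degraders, was at 0.279% to 5.93% in CFA mice and had counts only in naïve mice 562 and 563, at 0.557% and 0.925% (exact permutation test, p = 0.0173, adjusted p = 0.158). The changes of Acutalibacter and Ruminococcus since -2 dpi passed before adjustment but not after it (exact permutation tests, p = 0.0260 and 0.0368, adjusted p = 0.351 for both).

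**Figure D4:**
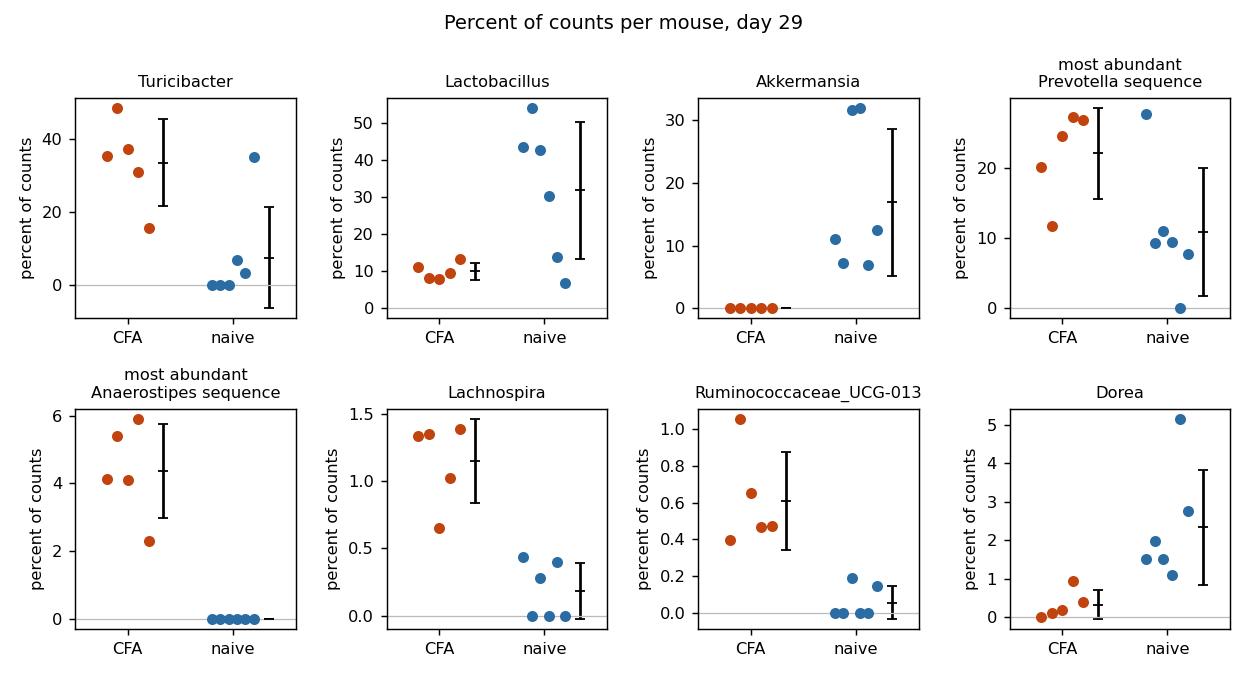
Percent of counts (y axes) of 6 genera and of the most abundant Prevotella and Anaerostipes sequences in single CFA (orange, n = 5) and naïve (blue, n = 6) mice at 29 dpi, with the mean and SD as bars beside the points. The Anaerostipes sequence, Lachnospira and Ruminococcaceae_UCG-013 lay higher in every CFA mouse than in any naïve mouse, and Dorea and Akkermansia lay lower.

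On counts, the sequences behind some genus names passed where the genera did not. The sequence that carried all of the Anaerostipes name in CFA mice had no counts in any naïve mouse, at least 1218-fold lower, and passed on counts (edgeR, adjusted p = 0.00166). The counts named Anaerostipes in naïve mice belonged to a different sequence, one otherwise named Coprococcus. The difference in the sequence was there at -2 dpi as well, with 4.27% ± 1.34 in 6 of 6 CFA mice and 0 in naïve mice (edgeR, adjusted p = 0.00159, with 5.42% of sequences called at that day). It passed at 8, 14 and 19 dpi too (edgeR, adjusted p = 0.000879, 0.00203 and 0.00130), when 3.94%, 8.37% and 12.8% of sequences were called. A Roseburia sequence also had counts in CFA mice alone, at 1.37%, 0%, 0.978%, 1.01% and 2.71% in CFA mice and 0 in naïve mice at 29 dpi (at least 339-fold, edgeR, adjusted p = 0.0440), in 5 of 6 CFA mice and no naïve mouse at -2 dpi (edgeR, adjusted p = 0.0297). Without CFA mouse 543 or 547 or any 1 naïve mouse its adjusted p at 29 dpi lay above 0.05 (up to 0.0852). The genus Roseburia as a whole, a butyrate producer, reached 8.49% in CFA and 17.4% in naïve mice and overlapped (exact permutation test, p = 0.974). The fifth sequence called, named Coprococcus or Eubacterium_F, was at a mean of 0.489% in CFA mice, in 3 of 5, and at 0 in naïve mice (edgeR, adjusted p = 0.0482). It was lost without CFA mouse 543, 545, 546 or 547 or any 1 naïve mouse (adjusted p up to 0.0882).

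Most sequences were seen in only 1 of the groups. Of 197 sequences, 46 had counts in both, 50 only in CFA mice and 101 only in naïve mice, where 1 more mouse was sampled. Naïve mice 562 and 563 held 71 and 62 sequences, the other naïve mice 30 to 39 and CFA mice 30 to 47. How many sequences were seen in a single mouse was not counted. Sequences seen only in CFA mice held 9.14% to 16.8% of the counts of a CFA mouse, and those seen only in naïve mice held 24.7% to 48.7% of the counts of a naïve mouse. Only 1 sequence, that of Lactobacillus, was in all 11 mice. Of the sequences, 7 were in every CFA mouse and 3 in every naïve mouse. The Anaerostipes sequence was the only one in every CFA and no naïve mouse, and that of Akkermansia the only one in every naïve and no CFA mouse. In the Lachnospiraceae, 17 sequences were in both groups, 19 only in CFA mice (7.12% to 13.1% of their counts) and 46 only in naïve mice (5.99% to 16.6%).

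The families that hold most of these sequences overlapped between the groups. Lachnospiraceae was at 17.8%, 17.9%, 13.3%, 17.6% and 33.3% in CFA mice and at 14.5%, 23.4%, 11.2%, 9.23%, 57.0% and 17.1% in naïve mice (two-sided exact test, p = 0.892). Ruminococcaceae was at 7.69% ± 3.60 in CFA and 3.94% ± 4.04 in naïve mice (two-sided exact test, p = 0.145), with a log2 fold change of 0.85 and a standard error of 0.48 (edgeR, adjusted p = 0.207). Of the 23 genera listed for Lachnospiraceae, 20 had counts, of which 7 had a higher and 13 a lower mean in CFA mice, with a median difference of -0.181 percentage points. Of the 21 tested, 1 was called higher and 1 lower, beside 7.69% of all genera. In the Ruminococcaceae, 1 of 18 genera tested was called, higher in CFA mice, and the median difference was 0.000683. Over all 60 genera with counts, 25 had higher and 35 lower means, with a median difference of -0.0232.

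Of 10 genera listed as butyrate producers, 9 had counts and none was called (7.69% of all genera tested were), with 2 means higher and 7 lower in CFA mice. Their summed percent was 10.7 ± 2.23 (SD, n = 5) and 7.66 ± 9.23 (SD, n = 6). Plant fibre degraders, 4 genera, had no call either and summed to 17.7% ± 6.10 and 10.1% ± 8.52. Most of that was Prevotella, whose family was at 15.7% in CFA and 9.71% in naïve mice. A single sequence held 90.8% of the Prevotella counts and also carried the name Barnesiella, which this sum leaves out. The sum therefore depends on how variants of that sequence were named. The mucin degraders were Akkermansia alone. Mollicutes, bacteria without a cell wall, summed to 0.335% and 0.330%.

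Bacteroidales summed to 22.2% in CFA and 12.4% in naïve mice, which did not pass (exact permutation test of the phylum Bacteroidetes, p = 0.0887). In all but naïve mouse 561, which held 3 further Prevotella sequences at 3.29%, 2.95% and 2.59%, they were nearly all 1 sequence under the names Prevotella and Barnesiella, so that these genera, and the families Prevotellaceae and Porphyromonadaceae, are uncertain as separate taxa. The sequence was at 20.1%, 11.7%, 24.5%, 27.1% and 26.8% in CFA mice and at 27.7%, 9.28%, 10.9%, 9.46%, 0% and 7.74% in naïve mice (two-sided exact test, p = 0.0541). Naïve mouse 558 was above every CFA mouse, and the other 5 naïve mice were below all of them. On counts the log2 fold change was 0.44 (edgeR, adjusted p = 1.00).

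Romboutsia and Clostridium_sensu_stricto_1, found like Turicibacter mainly in the small intestine, had counts in none and 3 of the 5 CFA mice at 29 dpi. Romboutsia (Peptostreptococcaceae) was at 4.35%, 3.12%, 3.35%, 0.565% and 4.68% in CFA mice 543 to 547 at -2 dpi and at 0 in all CFA samples at 8, 14, 19 and 29 dpi. The level at -2 dpi was at least 789-fold that at 29 dpi, and Romboutsia was the only 1 of 65 genera (1.54%) that differed between these days in CFA mice (edgeR, adjusted p = 0.0184). That call was lost when any CFA mouse was left out at 29 dpi (adjusted p = 0.0573 to 0.0666). It was 0.00781 with the mouse as a block. Naïve mice held 0 at 29 dpi too, and on counts they were lower at 29 than at -2 dpi (edgeR, adjusted p = 0.0371, 1 of 2 genera called, 3.08%), although among the 6 only mouse 558 had counts at -2 dpi, at 0.666%. Clostridium_sensu_stricto_1 was at 6.96%, 4.72%, 5.57%, 0% and 0% in CFA mice and at 0%, 0%, 0%, 2.33%, 2.98% and 5.04% in naïve mice at 29 dpi (exact permutation test, p = 0.329). In CFA mice it had been at 1.59% ± 0.906 in 6 of 6 mice at -2 dpi, at 0 at 8 dpi, and in 1 of 6 mice at 14 and 19 dpi.

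EAE mice at 29 dpi place these values. Turicibacter was at 36.5% ± 10.8 (SD, n = 6) in EAE mice and 33.6% ± 11.9 (SD, n = 5) in CFA mice, with a log2 fold change of -0.12 on counts (edgeR, EAE against CFA, adjusted p = 1.00). Clostridium_sensu_stricto_1 was at 7.98% ± 2.99 in EAE mice. Lactobacillus was at 2.61% ± 2.07 in EAE mice, beside 9.97% in CFA mice. On counts the log2 fold change was -2.21 for both the genus and its family, which nearly the same counts make up. The genus did not pass (standard error 0.97, edgeR, adjusted p = 0.102), and the family Lactobacillaceae did (standard error 0.87, edgeR, adjusted p = 0.0484). Families called between EAE and CFA mice were 6 of 23 (26.1%), and genera 5 of 65 (7.69%). Romboutsia was in 5 of 6 EAE mice at 3.89% ± 2.43 and in no CFA mouse (edgeR, adjusted p = 0.00586). Akkermansia was in 1 of 6 EAE mice, at 7.33%, and its call (edgeR, adjusted p = 0.00586) rests on that mouse. EAE mice were compared with the same CFA samples as naïve mice were.

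Diversity did not differ detectably between CFA and naïve mice. The Shannon index over 16S sequences was 2.30 ± 0.225 (SD, n = 5) and 2.27 ± 0.633 (SD, n = 6, exact permutation test, p = 0.922). The inverse Simpson index was 5.43 ± 1.55 and 6.06 ± 4.58 (exact permutation test, p = 0.920), and the number of sequences was 39.8 ± 6.46 and 44.2 ± 17.8 (exact permutation test, p = 0.602). CFA mice varied less among themselves in each of these measures, and the difference in spread was not tested.

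Composition separated the groups. The division into CFA and naïve mice, which cannot be told apart from cage, took 42.5% of the variation in Bray-Curtis dissimilarity of genera (pseudo-F = 6.65, exact permutation test, p = 0.00649). Mean dissimilarity was 0.311 within CFA mice, 0.504 within naïve mice and 0.624 between them. The pseudo-F also responds to unequal spread within groups, and that difference in spread was not tested. The nearest neighbour of each of the 5 CFA mice was a CFA mouse, and that of 4 of the 6 naïve mice a naïve mouse. Naïve mouse 562 was nearest to CFA mouse 547, at 0.518, and naïve mouse 563 to CFA mouse 543, at 0.290. The groups were already apart at -2 dpi, when the division by later treatment took 21.0% of the variation (pseudo-F = 2.66, exact permutation test, p = 0.0281). Whether the share at 29 dpi exceeds that at -2 dpi was not tested.

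Naïve mice 562 and 563 were the only naïve mice with Peptococcus-rc4-4 and Ruminococcus, and they held the lowest Lactobacillus of their group. Without them, an alternative chosen after seeing the data and for mice that lay close to CFA mice, so that the groups had to lie further apart, Turicibacter differed by 31.9 percentage points (exact permutation test, p = 0.0159) and Lactobacillaceae by -32.6 (exact permutation test, p = 0.00794, the smallest that 5 against 4 mice allow). The pseudo-F was then 15.9 (exact permutation test, p = 0.00794). On counts, edgeR then called 8 genera, 5 higher and 3 lower in CFA mice, and 3 families.

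**Figure D5:**
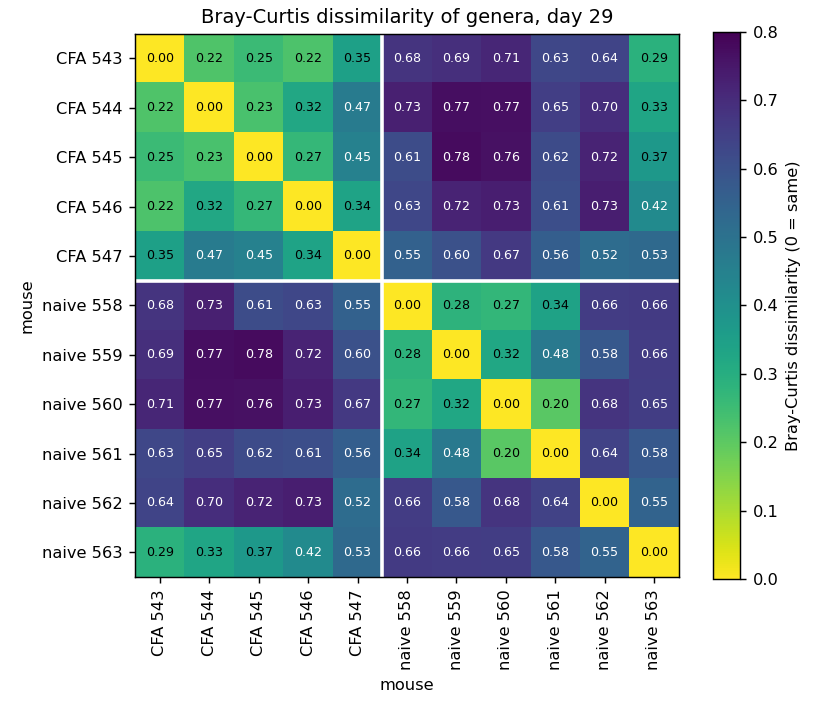
Bray-Curtis dissimilarity of genera between the 11 mice at 29 dpi, with mice on both axes and each value printed in its cell and coloured from 0 (identical) upward. Dissimilarities within CFA mice average 0.311, and naïve mouse 563 lies nearest to CFA mouse 543 at 0.290.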

How the data were processed

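The authors deposited raw counts of reads per ASV and sample, made with DADA2 (version not given in the sources used here) and neither rarefied nor scaled, with taxon names curated by hand from several databases. A clinical score and, in grams, a weight per mouse and day were deposited too. Samples were grouped by the treatment and day of the labels. Water controls were not analysed here.

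Counts were summed per family, genus and 16S sequence. Of 2295 ASVs, 501 sequences remained after primer variants were summed, and 31 carried several genus names. Taxa that had counts in 3 or more samples entered edgeR 4.0.16 (R 4.3.3, quasi-likelihood test) in a single fit of 15 groups (88 samples) with TMMwsp factors from genus counts. Percents, diversity, Bray-Curtis dissimilarity and weight were compared by two-sided exact permutation tests over mice (462 splits), and changes within mice by sign-flip tests (Python 3.11.15, SciPy 1.17.1). Benjamini-Hochberg adjustment ran over all taxa of a rank, with a threshold of 0.05. "At least N-fold" sets each sample at 0 to its floor of 3 counts. A fitted fold change of a taxon at 0 throughout a group depends on the prior count and is not given.

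Tested on simulated counts of sequences at a dispersion of 0.5, edgeR recovered 113 of 180 sequences changed 8-fold among 448 tested. It recovered 0 of 180 at a dispersion of 11 and 0 of 168 at 30. These are close to the median dispersions of these data (11.01 for genera and 30.0 for sequences). Each run used 1 mean profile and 1 dispersion for all sequences, and genus counts were not simulated, so the runs do not give the power of the tests above.

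The mouse number in the titles pairs the samples of an animal across days. Same-animal deviations at -2 and 29 dpi correlated by -0.279 to 0.302. The text names called families and genera, the 8 most abundant families and 10 most abundant genera, taxa that the paper names, and examples from fixed lists. Dorea, Acutalibacter, Lachnospira, Ruminococcus, Ruminococcaceae_UCG-013 and Ruminococcus-DTU089 were named after their values were seen. Members, lists and tests were chosen with earlier results of these data known. Alternatives were DESeq2 1.42.0 with poscounts, total counts only, other filters, only the compared groups in the fit, a centred log ratio (pseudocount 0.5), ASVs as deposited, the replicate block and leaving out each mouse. A single name per sequence, leaving out naïve mice 562 and 563, and leaving out mice in the comparisons of change were added after seeing the data.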

Additional observations from a re-analysis of the deposited data

Results flagged for a closer look

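Single mice lay far from the rest of their group in 7 of 47 groups examined for it. The limit used is one that about 1 in 20 groups of normally distributed values would pass. Percents here are skewed and often 0, and the flags fall on mice 547, 562 and 563 in measures that partly hold the same counts. The number of flags therefore cannot be set against that share. Naïve mouse 563 held 35.4% Erysipelotrichaceae and 35.2% Turicibacter, which were at 6.91% or less in the other 5 naïve mice. Naïve mouse 562 held 57.0% Lachnospiraceae and 17.4% Roseburia and had an inverse Simpson index of 15.1. CFA mouse 547 held 33.3% Lachnospiraceae and 2.01% Neglecta. The change since -2 dpi of Ruminococcus-DTU089 differed between CFA and naïve mice (log2 fold change 16.9, edgeR, adjusted p = 0.0492). That fitted value is no measure of size, since the genus had counts in 1 of the 11 mice at 29 dpi, and its name shares a sequence with other genus names.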

How the results depend on the processing

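DESeq2 called 7 families, 20 genera and 81 sequences at 29 dpi, among them all 2 families, 5 genera and 5 sequences called by edgeR, and also 10 genera at -2 dpi, 13 genera in the change since -2 dpi and 12 in CFA mice between these days. Families called numbered 1 with the filter set over the 11 samples. Sequences called numbered 18 with that filter, 18 with only the 2 groups in the fit, 2 without a filter, and 20 of 648 ASVs as deposited. The change since -2 dpi gave 0 genera with 1 name per sequence. With the replicate block it gave 0 of 53 (1 lower without the block in the same samples, not the genus called over all samples), and CFA mice between the days gave 1 genus (0 without the block in the same samples), and the block moved no other call. The exact test of changes in families called 3 on the centred log ratio. Without naïve mice 562 and 563, genera called numbered 8, sequences 2, the Shannon difference was 0.405 and passed 0.05, the inverse Simpson difference was 1.71 and the difference in sequences 6.80. With ASVs as deposited those 2 differences were 1.93 and 13.5. Naïve mice 562 and 563 had the highest Shannon indices of their group (3.36 and 2.67), and also the highest inverse Simpson indices and most sequences. Leaving these mice out after seeing the data therefore had to raise the diversity differences, and the pass of the Shannon difference is no evidence of one. Leaving out 1 mouse gave 2 to 5 families (5 without naïve mouse 562), 2 to 5 genera, 2 to 5 sequences, 0 to 3 genera in the change, 0 to 1 in CFA mice between days and a pseudo-F of 5.15 to 9.70. The Shannon difference then ran from -0.0841 to 0.251 (-0.0563 without CFA mouse 547, and -0.0617, -0.0110 and -0.0109 without naïve mice 558, 559 and 561), the inverse Simpson difference from -1.26 to 1.18 and that in sequences from -7.20 to 1.00. The direction of each diversity difference is thus unsettled. The causes were not tested. At a depth of at least 55597 counts, the floor is at most 0.00540%.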
